A study of Mus musculus with 24 samples.

Results

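The genes described here are 40 DNA replication and mitosis genes of cultured mouse granulosa cells, which line the ovarian follicle, nurse the oocyte and produce steroid hormones. They were chosen by their symbols, as a list of genes known to act in replication, the entry into S phase or mitosis. The rule holds no measured value, but the list was drawn up with earlier results of these data known. All 40 are among the 39253 genes listed in the deposited table, and all 40 were among the 15405 genes with enough counts to test. The cells came from 23-day-old C57BL/6 mice, 48 h after the mice received PMSG, a gonadotropin preparation that drives follicle growth. Granulosa cells pooled from 2 mice were plated in 12-well dishes, transfected for 3 h with an siRNA, and then kept for a further 4 h or 12 h. In the siNTS + hCG groups the siRNA was against Nts, the gene for neurotensin, and the cells received human chorionic gonadotropin (hCG), a hormone that binds the receptor of luteinizing hormone and triggers ovulation. In the siNC + hCG groups a negative control siRNA was followed by the same hormone. In the control groups the negative control siRNA was followed by plain medium. Each of the 3 treatments at each of the 2 times has 4 libraries, so 24 libraries fall in 6 groups. All groups share the PMSG priming, the transfection and the primary culture, and there is no untransfected group and no Nts siRNA without hCG.

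A cell that divides copies its DNA in S phase and separates the copies in mitosis. Before S phase, Cdc6 and Cdt1 load the Mcm helicase onto replication origins, and E2F transcription factors, held back by the RB family, raise the genes of DNA synthesis. Mitosis needs cyclin-dependent kinase 1 with its A and B cyclins, the Aurora and Polo kinases, a spindle attached to kinetochores, and the anaphase-promoting complex, whose activator Cdc20 starts the separation. In the ovary, granulosa cells of growing follicles divide rapidly, and after the ovulatory hormone surge they leave the cell cycle as they become luteal cells.

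Library totals ran from 26.2 to 45.4 M estimated counts, and levels are given as CPM, counts scaled to a common library total after TMM adjustment. CPM values do not take gene length into account, so they compare libraries and not genes. The libraries of each group carry the labels A_1, A_2, B_2 and B_3, and their titles carry 3 dates, whose meaning is not stated; A_2 and B_2 share theirs. Wherever 4 values are listed they stand in that label order. All 10 granulosa markers were present, with a summed level from 1837 to 4700 CPM. Among the marker lists of other cells, those of oocytes, immune cells, fibroblasts, endothelium, smooth muscle and surface epithelium each summed to less in all libraries, with the highest single value at 24.1 CPM for the immune list. Erythrocyte transcripts summed to between 79.1 and 3208 CPM, and the theca and interstitial list to between 43.2 and 99.2 CPM, nearly all of it Ptch1. Nts itself had a median of 0.138 CPM in siNTS + hCG and 2.12 CPM in siNC + hCG cells at 12 h, and of 4.28 CPM and 25.8 CPM in the same order at 4 h, with ranges that overlapped at both times.

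Some libraries stand apart by transcript length, which touches several results below. The libraries labelled A_1 hold the extremes: the trend of a gene's deviation with the length of its longest transcript was −0.42 log2 units per doubling of length in the A_1 control library at 4 h and 0.23 in the A_1 control library at 12 h. A fit with an offset for this trend in each library was therefore run as well, chosen after seeing the data, over the 13940 tested genes with a known length. Counts of genes that passed are given with it, with the label as a block, and without A_1, where these change a call. The labels do not say whether A_2 and B_2 were separate pools of cells, so the p-values measure only the spread between these libraries, which may be partly technical.

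Promoter sequences are shown for genes that carry the results over time, at most 1 from each role besides Ccnb2, because replication and mitosis genes are known for different promoter elements. RefSeq (GRCm38.p6) gave the 300 bases from 250 before to 50 after the start for 33 of the 40 genes. Capitals mark 3 kinds of words, searched on both strands: the E2F words TTTCCCGC, TTTCGCGC, TTTGCCGC and TTTGGCGC, the CHR word TTTGAA, and CCAAT. The last C of the E2F word after the Mcm7 start is also the first C of a CCAAT word, so these 2 run together. The Mcm7 promoter lies at chr5:138171834-138172133 on the minus strand and the Rrm2 promoter at chr12:24708004-24708303 on the plus strand. That of Ccne1 lies at chr7:38107441-38107740 on the minus strand, that of Plk1 at chr7:122159185-122159484 on the plus strand and that of Prc1 at chr7:80294201-80294500 on the plus strand. The Cdc20 promoter lies at chr4:118437294-118437593 on the minus strand. Ccnb2, at chr9:70421505-70421804 on the minus strand, was added after its values were seen, since its level moved apart from the other mitotic cyclins.
Mcm7: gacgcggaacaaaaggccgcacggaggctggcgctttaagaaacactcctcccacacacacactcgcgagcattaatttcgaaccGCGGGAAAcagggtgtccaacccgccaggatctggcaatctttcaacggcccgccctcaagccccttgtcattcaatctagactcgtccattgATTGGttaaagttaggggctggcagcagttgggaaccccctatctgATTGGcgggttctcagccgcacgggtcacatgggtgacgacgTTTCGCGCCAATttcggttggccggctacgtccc
Rrm2: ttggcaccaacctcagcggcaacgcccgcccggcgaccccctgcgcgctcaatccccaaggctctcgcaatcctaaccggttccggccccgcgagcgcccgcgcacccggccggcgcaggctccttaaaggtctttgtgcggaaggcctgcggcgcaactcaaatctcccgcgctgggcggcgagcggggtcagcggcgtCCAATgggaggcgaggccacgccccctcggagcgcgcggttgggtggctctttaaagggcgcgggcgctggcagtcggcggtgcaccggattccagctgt
Ccne1: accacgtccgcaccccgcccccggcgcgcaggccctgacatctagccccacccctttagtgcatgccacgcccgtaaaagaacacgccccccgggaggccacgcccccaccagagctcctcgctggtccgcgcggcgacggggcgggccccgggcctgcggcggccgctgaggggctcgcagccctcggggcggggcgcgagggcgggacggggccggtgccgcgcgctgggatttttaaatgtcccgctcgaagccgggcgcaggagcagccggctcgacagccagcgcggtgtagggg
Plk1: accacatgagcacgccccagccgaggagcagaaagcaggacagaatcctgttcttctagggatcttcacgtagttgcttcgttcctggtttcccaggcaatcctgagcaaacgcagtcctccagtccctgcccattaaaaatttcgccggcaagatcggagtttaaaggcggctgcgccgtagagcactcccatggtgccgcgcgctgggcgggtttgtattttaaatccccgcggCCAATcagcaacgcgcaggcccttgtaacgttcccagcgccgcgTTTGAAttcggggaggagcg
Ccnb2: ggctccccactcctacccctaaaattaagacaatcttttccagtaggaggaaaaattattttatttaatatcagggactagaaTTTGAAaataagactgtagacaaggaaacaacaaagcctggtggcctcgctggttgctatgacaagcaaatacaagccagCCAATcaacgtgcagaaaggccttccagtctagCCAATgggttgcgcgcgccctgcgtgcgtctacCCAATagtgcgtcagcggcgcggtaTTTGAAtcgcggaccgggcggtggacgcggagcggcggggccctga
Prc1: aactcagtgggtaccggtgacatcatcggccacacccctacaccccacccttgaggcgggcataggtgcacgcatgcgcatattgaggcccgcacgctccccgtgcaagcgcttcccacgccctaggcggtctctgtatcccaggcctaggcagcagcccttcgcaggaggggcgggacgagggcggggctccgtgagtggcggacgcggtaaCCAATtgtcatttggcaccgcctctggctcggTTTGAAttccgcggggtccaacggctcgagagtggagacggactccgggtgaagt
Cdc20: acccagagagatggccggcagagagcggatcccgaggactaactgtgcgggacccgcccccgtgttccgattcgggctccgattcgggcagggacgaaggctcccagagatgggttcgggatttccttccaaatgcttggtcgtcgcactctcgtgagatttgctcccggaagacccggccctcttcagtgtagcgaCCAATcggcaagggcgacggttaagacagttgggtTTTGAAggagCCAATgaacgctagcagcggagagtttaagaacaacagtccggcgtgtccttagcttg

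Among the 14 replication and G1/S genes with a promoter, 6 held an E2F word (42.9%), 1 the CHR word (7.14%) and 8 CCAAT (57.1%). Among the 19 mitosis genes, 1 held an E2F word (5.26%), 14 the CHR word (73.7%) and 17 CCAAT (89.5%). Over all 27025 promoters of the same length in the table, 2.32% held an E2F word, 18.1% the CHR word and 37.9% CCAAT. The genes with an E2F word were Mcm3, Mcm5, Mcm6, Mcm7, Cdc6, Cdt1 and Cdk1. In the promoters printed above, Mcm7 held E2F words 165 bases before and 17 bases after the start, while Plk1, Ccnb2, Prc1 and Cdc20 each held CCAAT and the CHR word. Rrm2 held 1 CCAAT 50 bases before the start, and Ccne1 held none of these words in this window. No promoter is shown for Aurkb, Ccna2, Ccne2, Gins2, Kif20a, Mcm4 and Tpx2. These matches are letters in a sequence and were not tested as binding sites.

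The comparison of 12 h with 4 h of culture, made separately in cells with hCG and in control cells, asked how the levels of these genes moved over the culture. In both, most of the genes that passed were lower at 12 h. A gene passed, and is said to have risen or fallen, at an adjusted p under 0.05 in edgeR's quasi-likelihood test, and log2 fold changes are given ± their standard error. With hCG, 1 gene was higher and 22 were lower among the 40, where 22.9% of all genes tested were higher and 20.2% lower. In control cells 0 were higher and 25 were lower, where 14.8% of all genes tested were higher and 16.0% lower. The median log2 fold change of the 40 was −0.56 with hCG and −0.56 in control cells, against 0.01 and −0.01 over all genes tested. The libraries of the 2 times did not overlap for 21 of the 40 with hCG and for 20 in control cells. Overlap was not counted over all genes tested, so these 2 counts have no share to be set against. The unadjusted p was under 0.05 for 24 of the 40 with hCG and for 28 in control cells, all of the 28 lower. The shares of all genes given above are for the adjusted p and are no background for these counts. No share of all genes at an unadjusted p is given here, so these counts are not shown to be particular to the 40. 

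The 2 comparisons over time share no library, although they share labels and dates. Of the genes that fell, 20 fell in both, which is 90.9% of those that fell with hCG and 80.0% of those that fell in control cells. The same shares were not computed over all genes tested, so they are not shown to be particular to the 40. Gins2, Rrm2, Cdk1, Birc5 and Cenpa passed in control cells only, Kif23 and Tpx2 with hCG only, and Ccnb2 rose with hCG. The remaining 12 passed in neither: Mcm2, Rrm1, Tyms, Tk1, E2f1, Mki67, Top2a, Cenpe, Cenpf, Kif11, Kif20a and Nusap1. With a block for the label, 27 genes passed with hCG (53.3% of all genes) and 28 in control cells (43.3%). With the length offset, 25 passed with hCG (52.2% of all genes) and 27 in control cells (39.6%). Without A_1 the counts were 25 with hCG and 26 in control cells, and no share of all genes is given for that fit. In control cells Gins2, Pcna, Ccne2, Birc5 and Cenpa were then lost, and Mcm2, Top2a, Kif20a, Kif23, Tpx2 and Nusap1 passed. In these bulk samples, fewer dividing cells and less of each RNA per cell cannot be told apart.

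**Figure D1:**
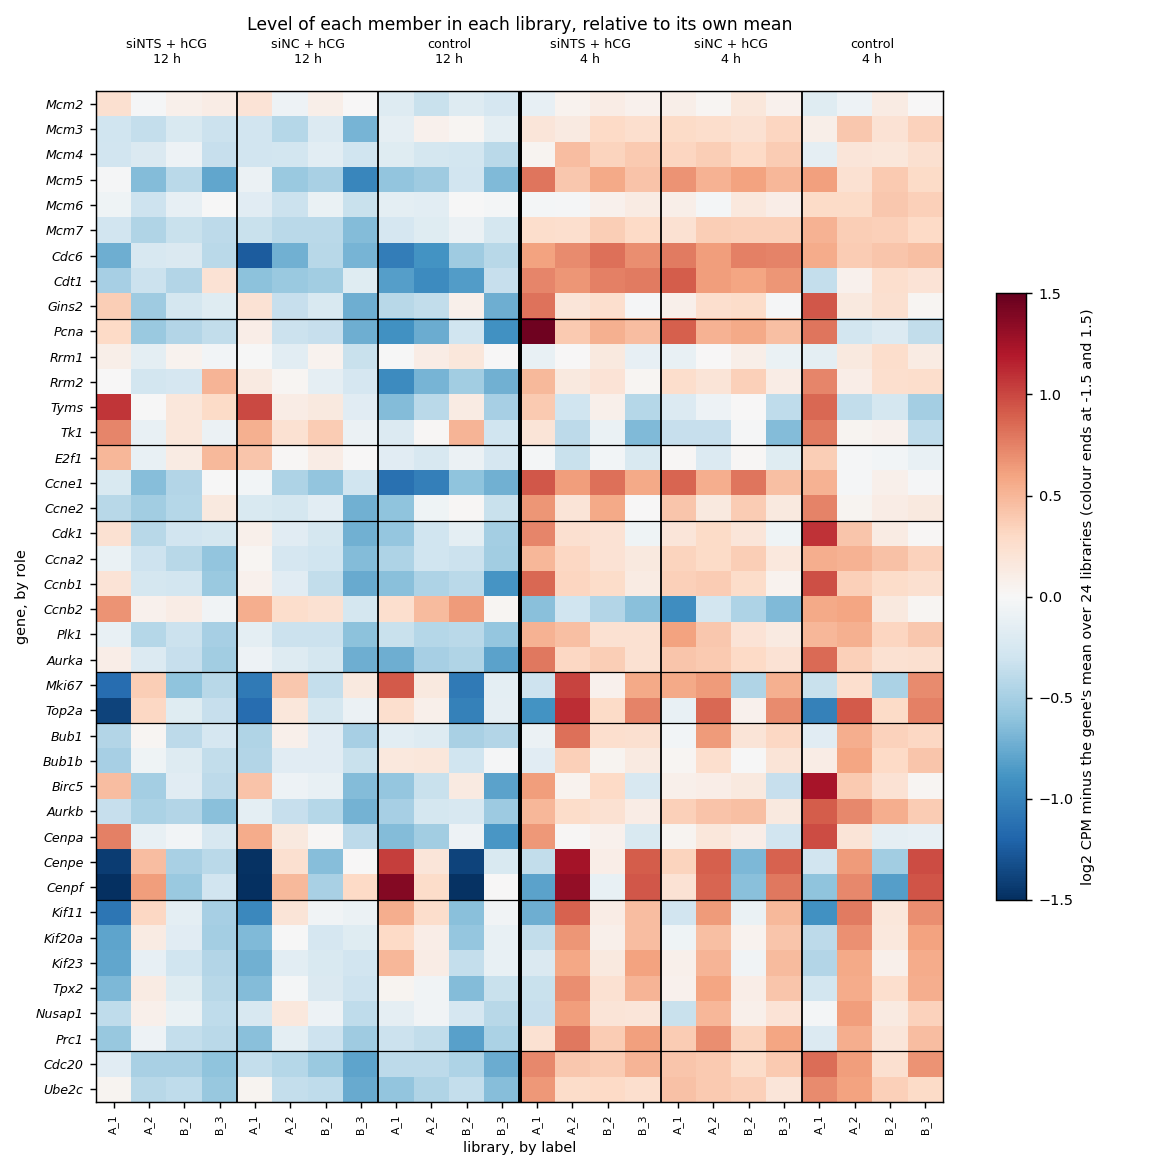
Level of each of the 40 genes (rows, by role) in each of the 24 libraries (columns, by group and label), as log2 CPM minus the gene's own mean over all libraries; red is above and blue below that mean. Most rows are blue in the 12 h groups and red in the 4 h groups, Ccnb2 runs the other way in hCG cells, and the rows of long genes such as Cenpf and Top2a vary between the libraries of a group.

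**Figure D2:**
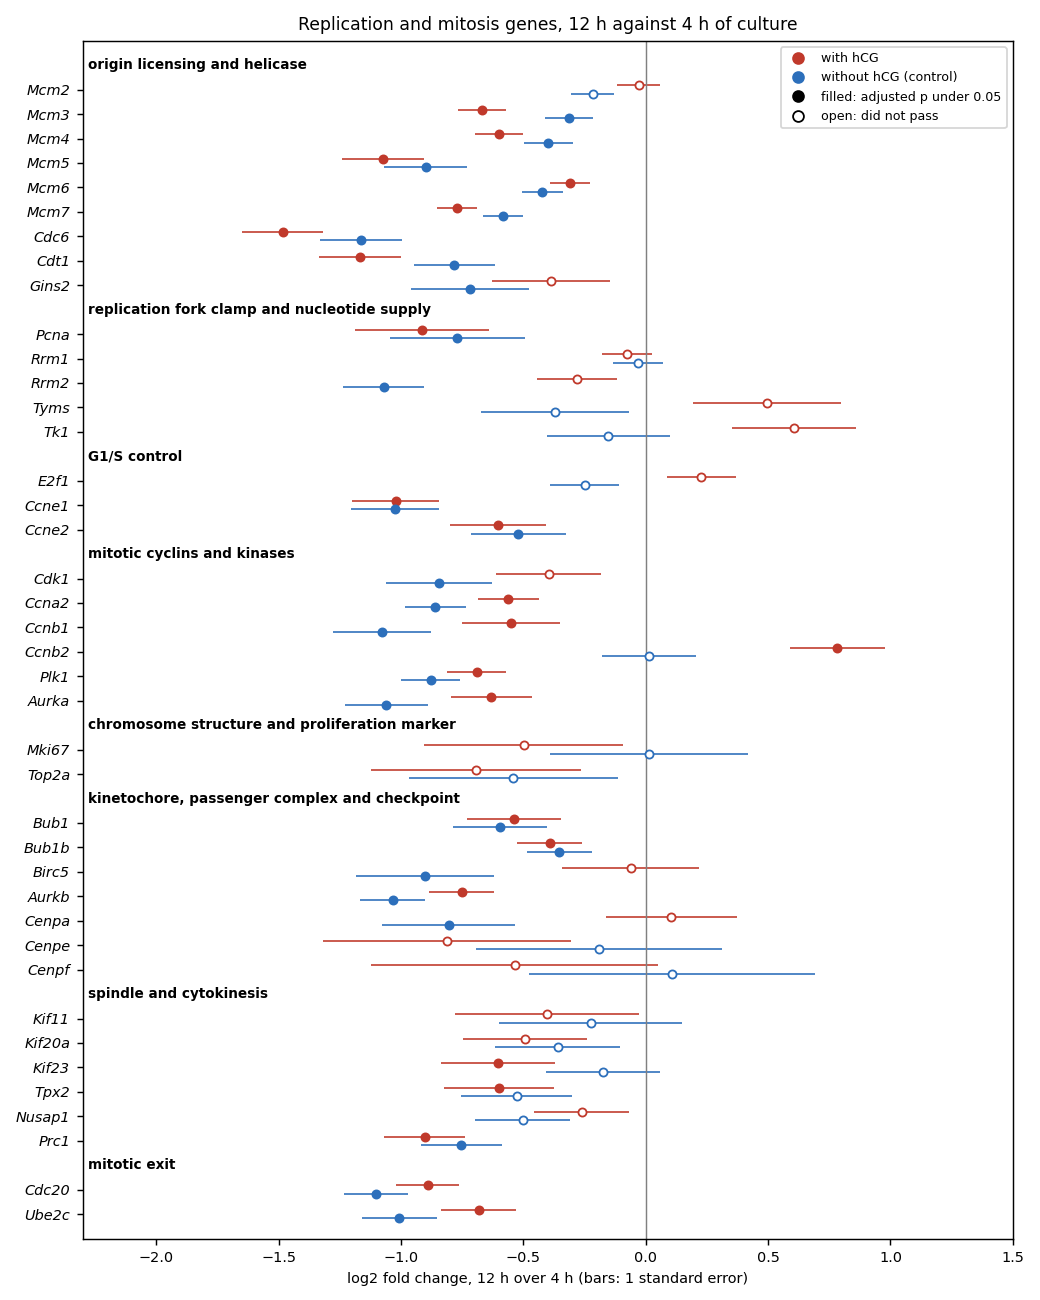
Log2 fold change of each gene, 12 h over 4 h, with hCG (red) and in control cells (blue), with bars of 1 standard error; filled points passed at an adjusted p under 0.05. The points run from −1.48 for Cdc6 with hCG to 0.78 for Ccnb2 with hCG, and most filled points lie left of 0.

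Other measures also moved over this time. The granulosa markers summed to between 1837 and 2103 CPM in siNC + hCG cells at 12 h, against between 3293 and 4682 CPM at 4 h. In control cells they summed to between 2378 and 2711 CPM at 12 h, against between 3489 and 4298 CPM at 4 h. Of the 10 markers, 4 rose and 4 fell with hCG, and 3 rose and 4 fell in control cells. Of the 7 immune markers, 6 were tested, of which 2 fell with hCG and 4 in control cells; Cd3e was at or near 0. The immune list summed to between 11.05 and 15.3 CPM in siNC + hCG cells at 12 h, against between 18.6 and 24.1 CPM at 4 h, and to between 4.82 and 8.26 CPM in control cells at 12 h, against between 11.2 and 24.1 CPM at 4 h. The 3 erythrocyte transcripts had a median sum of 367 CPM in siNC + hCG cells at 12 h and 838 CPM at 4 h, and of 176 CPM in control cells at 12 h and 1195 CPM at 4 h, and 0 of the 3 passed in either, while all 3 passed as lower in both with the label as a block. The part of these shifts in the fall of the replication and mitosis genes was not tested.

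Of the 9 genes of origin licensing and helicase, 7 fell with hCG and 8 in control cells. Mcm7 (Entrez 17220), a subunit of the helicase ring, had 59.9, 57.3, 57.4 and 48.4 CPM with hCG at 12 h, against 88.6, 97.9, 97.0 and 97.2 CPM at 4 h. In control cells Mcm7 had 63.9, 67.1, 71.4 and 62.9 CPM at 12 h, against 109, 98.3, 97.3 and 93.1 CPM at 4 h. Every library at 12 h was below every library at 4 h, with and without hCG. Its log2 fold change was −0.77 ± 0.08 (adjusted p = 1.9e-07) with hCG and −0.58 ± 0.08 (adjusted p = 1.7e-05) in control cells. Cdc6, which helps to load the helicase, had the lowest log2 fold changes of the 40, at −1.48 ± 0.17 with hCG (adjusted p = 3.6e-07) and −1.16 ± 0.17 in control cells (adjusted p = 2.1e-05). It averaged 2.45 ± 0.559 CPM with hCG at 12 h and 6.86 ± 0.319 CPM at 4 h, and in control cells 2.52 ± 0.522 CPM at 12 h and 5.65 ± 0.301 CPM at 4 h (SD, n = 4 each). Its partner Cdt1 fell, at a log2 fold change of −1.17 ± 0.17 (adjusted p = 7.8e-06) with hCG and −0.78 ± 0.17 (adjusted p = 0.0011) in control cells.

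The helicase subunits did not all move by the same amount. Mcm5 fell the most of the 6, at −1.07 ± 0.17 (adjusted p = 2.5e-05) with hCG and −0.90 ± 0.17 (adjusted p = 0.00034) in control cells. Mcm3, Mcm4 and Mcm6 fell by less, with log2 fold changes from −0.67 to −0.31 over both comparisons. Mcm2, a subunit of the same ring, did not pass: −0.03 ± 0.09 (adjusted p = 0.82) with hCG and −0.22 ± 0.09 (adjusted p = 0.067) in control cells. Its levels averaged 67.6 ± 5.78 CPM with hCG at 12 h and 69.0 ± 3.01 CPM at 4 h. In control cells Mcm2 passed without A_1 (−0.26, adjusted p = 0.026) and with the block (−0.22, adjusted p = 0.033). Gins2, part of the active helicase, had −0.39 ± 0.24 (adjusted p = 0.21) with hCG and −0.72 ± 0.24 (adjusted p = 0.028) in control cells. With hCG Gins2 passed without A_1 (−0.61, adjusted p = 0.016) and with the block (−0.44, adjusted p = 0.038). In control cells, 3 calls depend on single labels, with the adjusted p without each label in brackets: the adjusted p of Mcm3 reached 0.05 or more without A_2 (0.13), B_2 (0.053) or B_3 (0.11), that of Mcm4 without A_2 (0.058) or B_3 (0.072), and that of Gins2 without A_1 (0.11), A_2 (0.1) or B_3 (0.073).

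Of the 5 genes of the clamp and of nucleotide supply, 1 fell with hCG and 2 in control cells. Pcna (Entrez 18538), the sliding clamp of the replication fork, had 152, 113, 111 and 85.3 CPM with hCG at 12 h, against 263, 203, 209.5 and 193 CPM at 4 h. In control cells it had 75.5, 84.8, 115 and 75.2 CPM at 12 h, against 247, 117, 123 and 109.8 CPM at 4 h. In 3 of these 4 groups A_1 gave the highest value, and the groups overlapped in control cells but not with hCG. Pcna fell, at a log2 fold change of −0.91 ± 0.27 (adjusted p = 0.0099) with hCG and −0.77 ± 0.27 (adjusted p = 0.037) in control cells. The call with hCG was lost without A_2 (0.051) or B_3 (0.058), and that in control cells without A_1 (0.092), A_2 (0.11) or B_3 (0.089).

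Rrm2 (Entrez 20135), the small subunit of ribonucleotide reductase, had 78.3, 72.8, 64.9 and 59.7 CPM with hCG at 12 h, against 85.9, 81.2, 91.1 and 76.8 CPM at 4 h. In control cells Rrm2 had 37.1, 43.8, 49.8 and 43.2 CPM at 12 h, against 118, 76.2, 84.8 and 85.9 CPM at 4 h. The groups overlapped with hCG and stood clear of each other in control cells. The log2 fold change was −1.07 ± 0.16 (adjusted p = 4.6e-05) in control cells, while with hCG it was −0.28 ± 0.16 and did not pass (adjusted p = 0.17), except with the length offset (−0.39, adjusted p = 0.013). Rrm1, the large subunit, had −0.08 ± 0.10 (adjusted p = 0.59) with hCG and −0.03 ± 0.10 (adjusted p = 0.85) in control cells. Tyms, thymidylate synthase, had 0.49 ± 0.30 (adjusted p = 0.2) with hCG and −0.37 ± 0.30 (adjusted p = 0.37) in control cells. Thymidine kinase, Tk1, had 0.61 ± 0.25 (adjusted p = 0.058) with hCG and −0.15 ± 0.25 (adjusted p = 0.67) in control cells. With hCG Tk1 passed as higher with the block (0.60, adjusted p = 0.0056) and with the length offset (0.39, adjusted p = 0.013).

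At the entry into S phase, both E cyclins fell and E2f1 did not pass. Ccne1 (Entrez 12447), which switches on Cdk2, had 4.26, 3.16, 2.87 and 3.54 CPM with hCG at 12 h, against 8.04, 6.40, 7.69 and 5.98 CPM at 4 h. In control cells Ccne1 had 1.98, 2.12, 2.87 and 2.64 CPM at 12 h, against 6.29, 4.32, 4.60 and 4.33 CPM at 4 h. All libraries at 12 h were below all at 4 h within each treatment, with log2 fold changes of −1.02 ± 0.18 (adjusted p = 7.6e-05) with hCG and −1.03 ± 0.18 (adjusted p = 0.00018) in control cells. Ccne2 fell, at a log2 fold change of −0.60 ± 0.20 (adjusted p = 0.016) with hCG and −0.52 ± 0.19 (adjusted p = 0.047) in control cells. Its call was lost with hCG without B_2 (0.052) and in control cells without A_1 (0.47), A_2 (0.082), B_2 (0.065) or B_3 (0.066). E2f1 (Entrez 13555), a transcription factor of S-phase genes, had 19.2, 14.6, 15.5 and 14.5 CPM with hCG at 12 h, against 14.6, 12.5, 14.6 and 12.7 CPM at 4 h, and 12.8, 12.1, 13.6 and 12.1 CPM in control cells at 12 h, against 18.6, 14.2, 14.0 and 13.4 CPM at 4 h. The times overlapped in both treatments, while at 12 h each label was higher with hCG and lower in control cells. E2f1 had a log2 fold change of 0.23 ± 0.14 (adjusted p = 0.2) with hCG and −0.25 ± 0.14 (adjusted p = 0.19) in control cells.

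**Figure D3:**
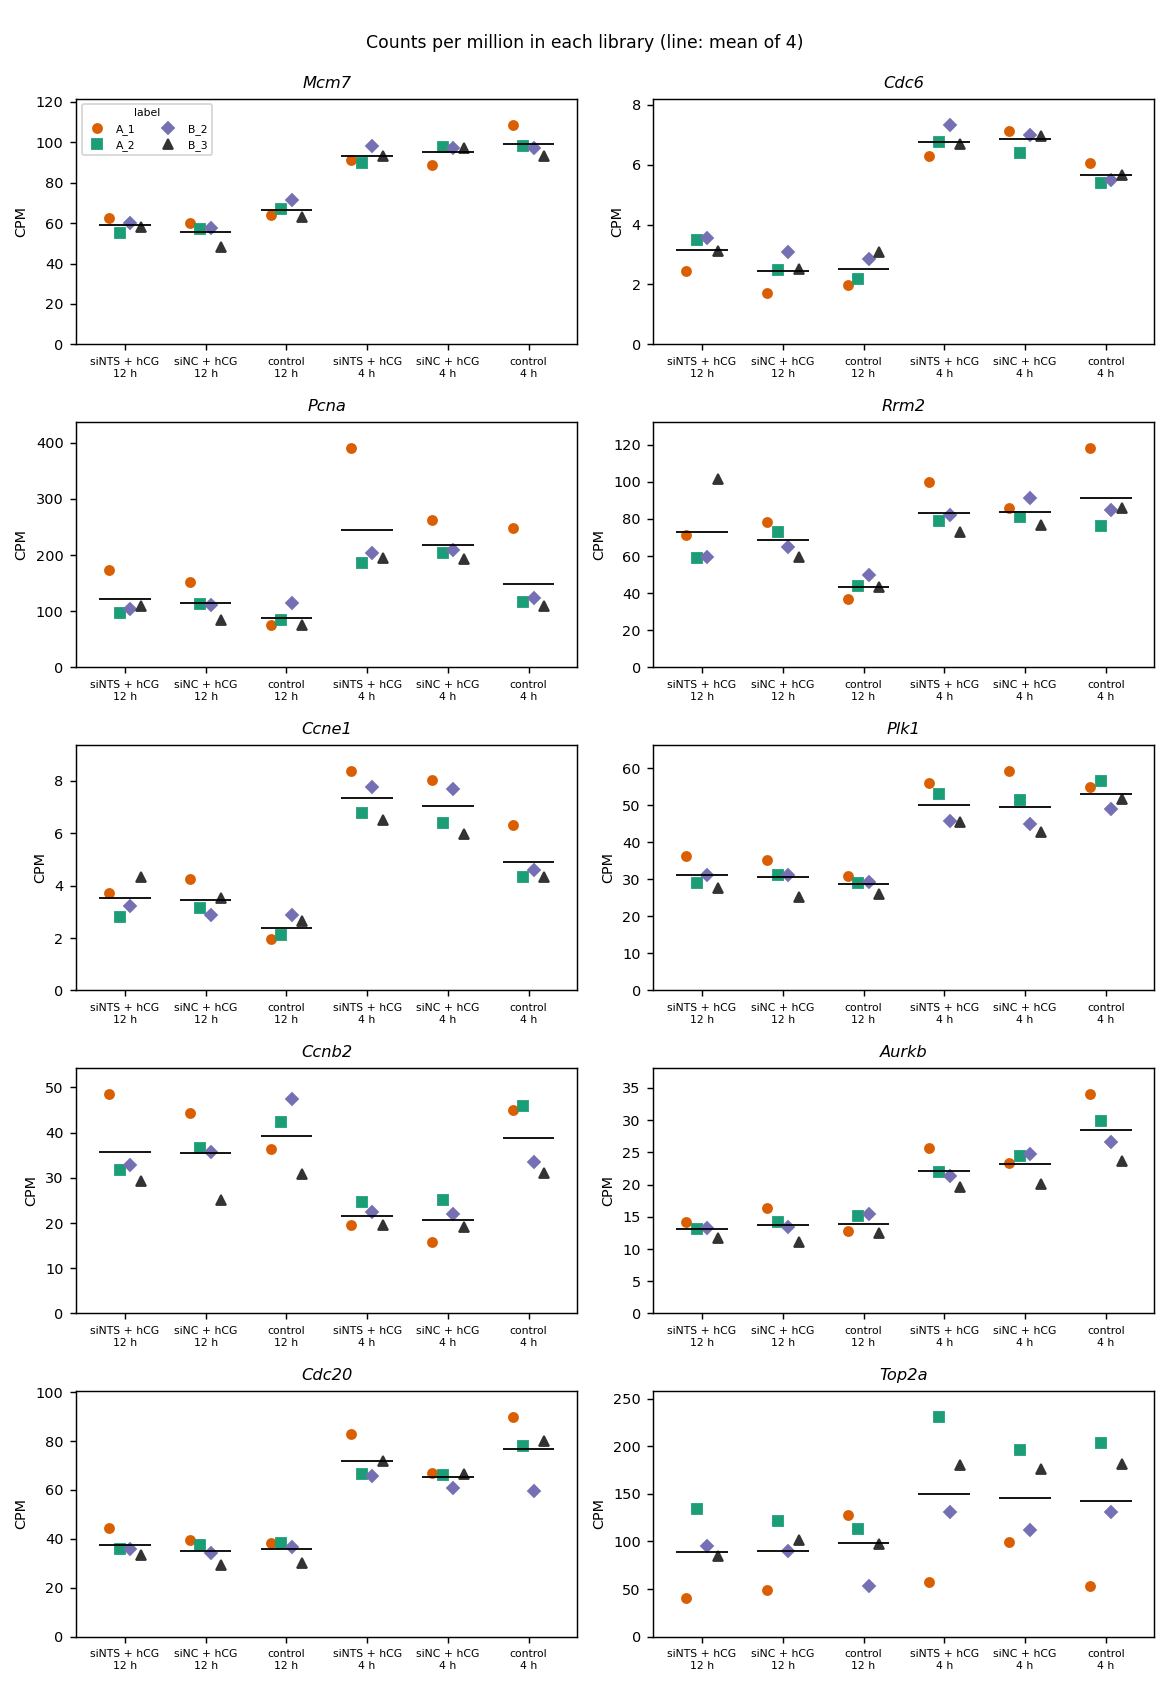
CPM of 10 genes in every library, by group, with a symbol for each label and a line at the mean of 4; the axes start at 0. The 12 h groups lie below the 4 h groups for Mcm7, Cdc6, Ccne1, Plk1, Aurkb and Cdc20, Ccnb2 is lowest in the hCG groups at 4 h, and Top2a varies widely within groups.

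Of the 6 mitotic cyclins and kinases, 4 fell and 1 rose with hCG, and 5 fell in control cells. Plk1 (Entrez 18817), the Polo kinase of mitotic entry, had 35.2, 31.2, 31.2 and 25.4 CPM with hCG at 12 h, against 59.3, 51.6, 44.9 and 42.7 CPM at 4 h. In control cells Plk1 had 30.9, 29.03, 29.4 and 26.1 CPM at 12 h, against 55.0, 56.6, 48.9 and 51.6 CPM at 4 h. The groups did not overlap, and the log2 fold change was −0.69 ± 0.12 (adjusted p = 8e-05) with hCG and −0.88 ± 0.12 (adjusted p = 1.4e-05) in control cells. Ccna2 (Entrez 12428), cyclin A2, had 72.7, 59.8, 57.8 and 45.3 CPM with hCG at 12 h, against 89.6, 86.9, 91.8 and 79.4 CPM at 4 h. In control cells Ccna2 had 51.7, 57.6, 57.0 and 49.6 CPM at 12 h, against 104, 102, 96.3 and 90.3 CPM at 4 h. Again all libraries at 12 h were the lower ones, at log2 fold changes of −0.56 ± 0.12 (adjusted p = 0.00089) with hCG and −0.86 ± 0.12 (adjusted p = 2.5e-05) in control cells. Aurka, the Aurora kinase of the spindle poles, fell, at a log2 fold change of −0.63 ± 0.17 (adjusted p = 0.004) with hCG and −1.06 ± 0.17 (adjusted p = 6.6e-05) in control cells.

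The B cyclins are set side by side here, without a test of the difference between them. Ccnb1 fell, at a log2 fold change of −0.55 ± 0.20 (adjusted p = 0.03) with hCG, a call lost without A_2 (0.13), B_2 (0.12) or B_3 (0.068), and at −1.08 ± 0.20 (adjusted p = 0.00034) in control cells. Ccnb2 (Entrez 12442) had 44.3, 36.5, 35.7 and 25.2 CPM with hCG at 12 h, against 15.9, 25.2, 22.0 and 19.2 CPM at 4 h. In control cells Ccnb2 had 36.3, 42.3, 47.3 and 30.9 CPM at 12 h, against 44.9, 45.9, 33.5 and 31.0 CPM at 4 h. With hCG the lowest library at 12 h was level with the highest at 4 h and the others were above it, while the control groups overlapped. Its log2 fold change was 0.78 ± 0.19 (adjusted p = 0.0024) with hCG and 0.01 ± 0.19 (adjusted p = 0.97) in control cells. Cdk1, the kinase that both B cyclins bind, had −0.40 ± 0.21 (adjusted p = 0.14) with hCG and −0.85 ± 0.22 (adjusted p = 0.0049) in control cells. With hCG Cdk1 passed without A_1 (−0.51, adjusted p = 0.012) and with the block (−0.42, adjusted p = 0.029).

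Neither gene of chromosome structure and proliferation passed. Top2a (Entrez 21973), the topoisomerase that untangles the copied DNA, had 48.6, 121, 89.9 and 101 CPM with hCG at 12 h, against 99.5, 196, 112 and 176 CPM at 4 h. In control cells Top2a had 128, 113, 53.4 and 97.9 CPM at 12 h, against 53.4, 204, 131 and 182 CPM at 4 h. The A_1 library was the lowest in 3 of these 4 groups and the highest in control cells at 12 h, and all groups overlapped. The log2 fold change of Top2a was −0.69 ± 0.43 (adjusted p = 0.2) with hCG and −0.54 ± 0.43 (adjusted p = 0.36) in control cells, where it passed without A_1 (−0.95, adjusted p = 0.019). The proliferation marker Mki67 had −0.50 ± 0.41 (adjusted p = 0.34) with hCG and 0.01 ± 0.40 (adjusted p = 0.98) in control cells.

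At the kinetochore, 3 of 7 genes fell with hCG and 5 in control cells. Aurkb (Entrez 20877), the kinase of the chromosomal passenger complex, had 16.3, 14.2, 13.4 and 11.04 CPM with hCG at 12 h, against 23.3, 24.5, 24.8 and 20.1 CPM at 4 h. In control cells Aurkb had 12.8, 15.1, 15.4 and 12.4 CPM at 12 h, against 34.1, 29.8, 26.5 and 23.7 CPM at 4 h. The groups did not overlap, and Aurkb fell, at a log2 fold change of −0.75 ± 0.13 (adjusted p = 8.6e-05) with hCG and −1.03 ± 0.13 (adjusted p = 6.2e-06) in control cells. Its partner Birc5, survivin, had −0.06 ± 0.28 (adjusted p = 0.89) with hCG and −0.90 ± 0.28 (adjusted p = 0.018) in control cells, the second of which was lost without A_1 (0.12) or A_2 (0.09).

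Cenpa (Entrez 12615), the histone of centromeres, had 52.4, 39.5, 36.2 and 27.1 CPM with hCG at 12 h, against 36.7, 40.2, 38.2 and 29.3 CPM at 4 h. In control cells Cenpa had 22.7, 24.8, 33.9 and 19.5 CPM at 12 h, against 70.4, 40.7, 32.4 and 32.7 CPM at 4 h. These groups overlapped in both, and the A_1 control library at 4 h was the highest of them. Cenpa had a log2 fold change of 0.10 ± 0.27 (adjusted p = 0.79) with hCG and −0.81 ± 0.27 (adjusted p = 0.027) in control cells, a call lost without A_1 (0.11), A_2 (0.13) or B_3 (0.057). The checkpoint kinase genes Bub1 and Bub1b fell in both comparisons. Bub1 fell, at a log2 fold change of −0.54 ± 0.19 (adjusted p = 0.027) with hCG, lost without B_2 (0.072) or B_3 (0.15), and at −0.60 ± 0.19 (adjusted p = 0.022) in control cells, lost without B_2 (0.14) or B_3 (0.12). Bub1b fell, at a log2 fold change of −0.39 ± 0.13 (adjusted p = 0.021) with hCG, lost without B_3 (0.11), and at −0.35 ± 0.13 (adjusted p = 0.0497) in control cells, lost without A_2 (0.13), B_2 (0.21) or B_3 (0.19). The kinetochore motor Cenpe had −0.81 ± 0.51 (adjusted p = 0.21) with hCG and −0.19 ± 0.50 (adjusted p = 0.8) in control cells, and the large kinetochore protein gene Cenpf −0.54 ± 0.59 (adjusted p = 0.49) and 0.11 ± 0.58 (adjusted p = 0.91) in the same order.

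Of the 6 spindle and cytokinesis genes, 3 fell with hCG and 1 in control cells. Prc1 (Entrez 233406), which bundles the microtubules of the central spindle, had 42.7, 59.2, 52.9 and 45.3 CPM with hCG at 12 h, against 85.6, 107, 82.7 and 99.2 CPM at 4 h. In control cells Prc1 had 52.4, 51.0, 37.4 and 47.3 CPM at 12 h, against 56.8, 95.8, 74.5 and 90.2 CPM at 4 h. The groups stood apart in both, at log2 fold changes of −0.90 ± 0.17 (adjusted p = 0.00014) with hCG and −0.75 ± 0.17 (adjusted p = 0.0015) in control cells. Tpx2, which activates Aurka on the spindle, fell, at a log2 fold change of −0.60 ± 0.23 (adjusted p = 0.036) with hCG, lost without A_2 (0.071), B_2 (0.069) or B_3 (0.14). The cytokinesis motor Kif23 fell, at a log2 fold change of −0.60 ± 0.23 (adjusted p = 0.04) with hCG, lost without A_2 (0.12), B_2 (0.054) or B_3 (0.14). In control cells Tpx2 had −0.53 ± 0.23 (adjusted p = 0.08) and the spindle protein gene Nusap1 −0.50 ± 0.19 (adjusted p = 0.053). Both passed there with the block (−0.48, adjusted p = 0.023 for Tpx2 and −0.48, adjusted p = 0.0036 for Nusap1) and with the length offset (−0.58, adjusted p = 0.0094 and −0.49, adjusted p = 0.033 in the same order). Without A_1, Tpx2, Nusap1, Kif20a and Kif23 passed in control cells, with adjusted p from 0.0042 to 0.043. With hCG the cytokinesis motor Kif20a had −0.49 ± 0.25 (adjusted p = 0.12) and passed with the block (−0.50, adjusted p = 0.034), and Kif11, the motor that keeps the spindle poles apart, −0.40 ± 0.38 (adjusted p = 0.41).

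Both genes of mitotic exit fell. Cdc20 (Entrez 107995), the activator of the anaphase-promoting complex, had 39.5, 37.5, 34.2 and 29.1 CPM with hCG at 12 h, against 67.1, 66.3, 60.8 and 66.3 CPM at 4 h. In control cells Cdc20 had 38.2, 38.4, 36.6 and 30.0 CPM at 12 h, against 89.8, 78.1, 59.7 and 80.1 CPM at 4 h. Every 12 h library was below every 4 h library of its treatment, with log2 fold changes of −0.89 ± 0.13 (adjusted p = 1e-05) with hCG and −1.10 ± 0.13 (adjusted p = 2.6e-06) in control cells. Ube2c (Entrez 68612), the ubiquitin-conjugating enzyme of that complex, had 69.9, 53.4, 52.3 and 40.4 CPM with hCG at 12 h, against 92.6, 89.7, 87.1 and 77.4 CPM at 4 h. In control cells Ube2c had 45.2, 49.9, 53.3 and 43.7 CPM at 12 h, against 111, 104, 87.3 and 83.6 CPM at 4 h. It fell, at a log2 fold change of −0.68 ± 0.15 (adjusted p = 0.00097) with hCG and −1.01 ± 0.15 (adjusted p = 4.2e-05) in control cells, also with no overlap. These calls, and those of Mcm5, Mcm6, Mcm7, Cdc6, Cdt1, Ccne1, Ccna2, Plk1, Aurka, Aurkb and Prc1, passed in both comparisons with each label left out in turn.

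The comparison of siNC + hCG with control cells asked what the ovulatory signal changed in these genes. At 12 h, 3 genes rose and 2 fell, where 8.18% of all genes tested were higher and 8.36% lower. At 4 h, 2 rose and 2 fell, where 7.95% were higher and 11.1% lower. The 40 genes thus passed at shares near or below those of all genes at both times. Their median log2 fold change was 0.05 at 12 h and −0.09 at 4 h, against −0.01 and −0.07 over all genes tested. The same libraries also enter the comparisons over time, so the results are not independent of those above. Of the 10 granulosa markers, 0 rose and 3 fell at 12 h, and 0 rose and 5 fell at 4 h. At 12 h 2 of the 3 tested theca and interstitial markers fell, and that list summed to between 43.2 and 61.8 CPM in hCG cells, against between 66.1 and 99.2 CPM in control cells. Of the 6 tested immune markers 1 rose at each time, 1 of 3 smooth muscle markers fell at 12 h, and the 1 tested surface epithelium marker rose at 4 h. The part of these markers in the results was not tested.

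At 12 h, Rrm2 had 78.3, 72.8, 64.9 and 59.7 CPM in hCG cells, against 37.1, 43.8, 49.8 and 43.2 CPM in control cells. The groups did not overlap, and Rrm2 rose, at a log2 fold change of 0.67 ± 0.16 (adjusted p = 0.0061), which was lost without A_2 (0.068). Ccne1 had 4.26, 3.16, 2.87 and 3.54 CPM in hCG cells, against 1.98, 2.12, 2.87 and 2.64 CPM in control cells. The lowest hCG library and the highest control library, both labelled B_2, were nearly equal, and Ccne1 rose, at a log2 fold change of 0.53 ± 0.18 (adjusted p = 0.048). Mcm2 averaged 67.6 ± 5.78 CPM in hCG and 54.7 ± 2.37 CPM in control cells (SD, n = 4 each), a log2 fold change of 0.31 ± 0.09 (adjusted p = 0.019). Mcm3 averaged 31.2 ± 4.52 CPM in hCG and 39.8 ± 3.08 CPM in control cells, a log2 fold change of −0.35 ± 0.10 (adjusted p = 0.016). Mcm7 fell, at a log2 fold change of −0.25 ± 0.08 (adjusted p = 0.038), so that subunits of 1 ring moved in both directions. The calls of Ccne1, Mcm2, Mcm3 and Mcm7 were each lost without 1 or more labels: Ccne1 without A_1 (0.28), A_2 (0.2), B_2 (0.066) or B_3 (0.098), Mcm2 without A_2 (0.099), B_2 (0.11) or B_3 (0.09), Mcm3 without A_2 (0.23), B_2 (0.057) or B_3 (0.1) and Mcm7 without A_2 (0.24), B_2 (0.22) or B_3 (0.2). Without A_2, 0 of the 40 passed, and without B_2 or without B_3, 1 did.

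Among the genes that did not pass at 12 h, Tyms had 0.67 ± 0.30 (adjusted p = 0.15), Cenpa 0.62 ± 0.27 (adjusted p = 0.13), Cenpf −0.48 ± 0.58 (adjusted p = 0.62) and Kif23 −0.40 ± 0.23 (adjusted p = 0.27). Pcna had 0.40 ± 0.27 (adjusted p = 0.36), E2f1 0.33 ± 0.14 (adjusted p = 0.12) and Aurka 0.32 ± 0.17 (adjusted p = 0.22). With a block for the label 8 passed at 12 h (27.0% of all genes), the added ones being E2f1 (0.32, adjusted p = 0.03), Cenpa (0.58, adjusted p = 0.021) and Bub1b (−0.29, adjusted p = 0.039). With the length offset 7 passed (22.3% of all genes), the added ones being Cenpa (0.43, adjusted p = 0.034) and Bub1b (−0.30, adjusted p = 0.048). In the authors' deposited table, 6 of the 40 had an adjusted p under 0.05 at 12 h (24.5% of its genes): Mcm2, Rrm2, Ccne1 and Cenpa higher, and Mcm3 and Mcm7 lower.

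At 4 h, the largest change was that of Ccnb2, with 15.9, 25.2, 22.0 and 19.2 CPM in hCG cells, against 44.9, 45.9, 33.5 and 31.0 CPM in control cells. All hCG libraries were below all control libraries, and Ccnb2 fell, at a log2 fold change of −0.92 ± 0.19 (adjusted p = 0.0018). It was the only one of the 4 calls at this time that passed with each label left out in turn. The same 4 hCG libraries enter its rise over time, described above, so that rise is not independent of this fall. Cdt1 had 26.9, 22.2, 21.6 and 22.6 CPM in hCG cells, against 11.1, 15.0, 17.0 and 16.5 CPM in control cells. These groups did not overlap either, and its log2 fold change of 0.65 ± 0.16 (adjusted p = 0.0076) no longer passed without A_1 (0.074) or A_2 (0.056). Ccne1 had 8.04, 6.40, 7.69 and 5.98 CPM in hCG cells, against 6.29, 4.32, 4.60 and 4.33 CPM in control cells. The A_1 control library lay within the hCG range, and the Ccne1 log2 fold change of 0.52 ± 0.18 (adjusted p = 0.039) no longer passed without A_2 (0.16), B_2 (0.21) or B_3 (0.079). Mcm6 averaged 64.6 ± 3.29 CPM in hCG and 77.2 ± 3.12 CPM in control cells, a log2 fold change of −0.26 ± 0.08 (adjusted p = 0.033) with no overlap, lost without A_1 (0.097), A_2 (0.23), B_2 (0.19) or B_3 (0.17).

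Pcna at 4 h depended on the A_1 library. It had 263, 203, 209.5 and 193 CPM in hCG cells, against 247, 117, 123 and 109.8 CPM in control cells, where the A_1 control library lay above 3 of the 4 hCG libraries. The change did not pass, at 0.54 ± 0.27 (adjusted p = 0.18). It passed without A_1 (0.82, adjusted p = 0.00088), with a block for the label (0.61, adjusted p = 0.014) and with the length offset (0.78, adjusted p = 0.00048). With the block 7 genes passed at 4 h (30.1% of all genes), the other added ones being Tk1 (−0.48, adjusted p = 0.038) and Aurkb (−0.29, adjusted p = 0.018). With the length offset 5 passed (24.9% of all genes). The authors' deposited table had 6 of the 40 at an adjusted p under 0.05 (27.6% of its genes): Cdt1, Pcna and Ccne1 higher, and Mcm6, Ccnb2 and Aurkb lower. Among the genes that did not pass, Birc5 had −0.54 ± 0.28 (adjusted p = 0.19), Tk1 −0.51 ± 0.25 (adjusted p = 0.17), Aurkb −0.30 ± 0.13 (adjusted p = 0.12) and Cdc6 0.28 ± 0.16 (adjusted p = 0.25).

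**Figure D4:**
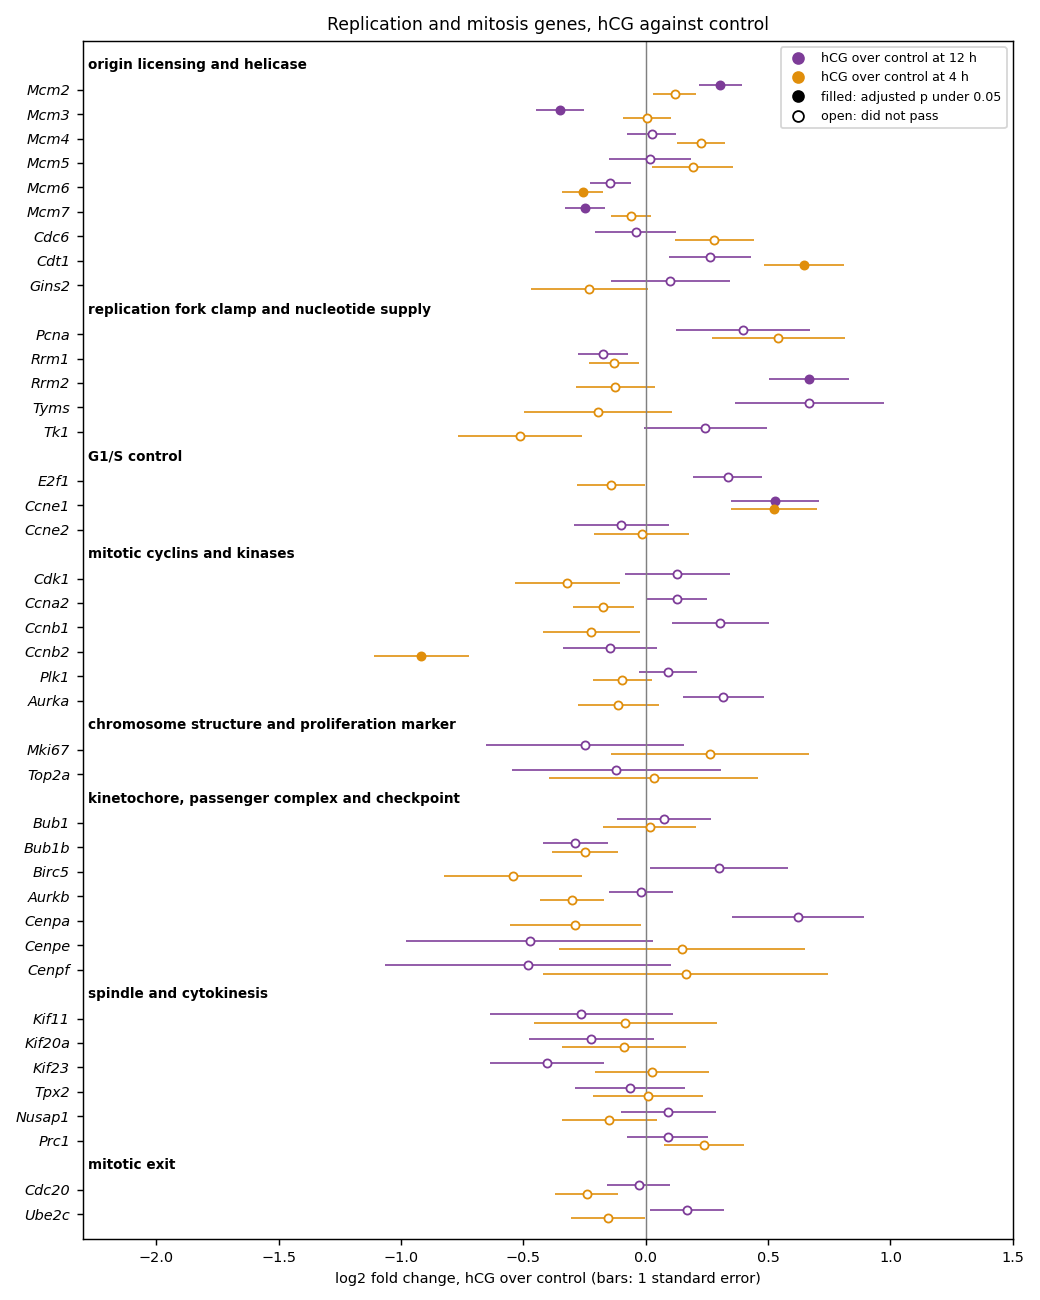
Log2 fold change of each gene, hCG over control, at 12 h (purple) and at 4 h (orange), with bars of 1 standard error; filled points passed at an adjusted p under 0.05. Of the 40 genes, 5 are filled at 12 h and 4 at 4 h, and the lowest point is Ccnb2 at 4 h (−0.92).

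The difference of the hCG effect between the times is also the difference between the falls over time with hCG and in control cells. In edgeR 0 of the 40 passed, where 3.80% of all genes did. Of the 40, 7 had an unadjusted p under 0.05, 6 with a positive and 1 with a negative difference. Over all 15405 genes tested, 1838 had a positive and 1163 a negative difference at that threshold. The differences of the 40, 12 h minus 4 h, ran from −0.64 to 0.91 on the log2 scale. Rrm2 came nearest, at 0.79 ± 0.23 (adjusted p = 0.056), and DESeq2 called it as its 1 gene (adjusted p = 0.03), while limma-voom called 0. Cenpa had 0.91 ± 0.38 (adjusted p = 0.19), Tyms 0.86 ± 0.43 (adjusted p = 0.27), Birc5 0.84 ± 0.40 (adjusted p = 0.25) and Ccnb2 0.77 ± 0.27 (adjusted p = 0.12). With a block for the label 4 passed (14.1% of all genes), each with a more positive effect at 12 h: Rrm2 (0.77, adjusted p = 0.029), E2f1 (0.46, adjusted p = 0.048), Ccnb2 (0.74, adjusted p = 0.035) and Cenpa (0.80, adjusted p = 0.04). With the length offset 1 passed (6.51% of all genes), which was Mcm3 (−0.43, adjusted p = 0.043). With the block and the length offset together 6 passed, 3 with a positive and 3 with a negative difference. Of all 13940 genes in that fit, 1299 passed with a positive and 1231 with a negative difference. Falls that passed with hCG only or in control cells only were not shown to differ in edgeR without a block or offset.

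The comparison of siNTS + hCG with siNC + hCG asked what a reduction of Nts changes. In edgeR 0 of the 40 passed at 12 h, where 0.162% of all genes did, and 0 at 4 h, where 0.00649% did. At an unadjusted p under 0.05 there was 1 gene at 12 h and there were 0 at 4 h. At that threshold, 240 of the 15405 genes tested were higher and 320 lower at 12 h, and 46 and 85 at 4 h. DESeq2, limma-voom, the block and the length offset each also called 0 of the 40 at both times. With the block 0.591% of all genes passed at 12 h and 0.0195% at 4 h. The authors' deposited table likewise had 0 of the 40 at an adjusted p under 0.05, with 2.30% of its genes called at 12 h and 0.418% at 4 h. Fold changes ran from −0.22 to 0.36 at 12 h and from −0.07 to 0.21 at 4 h on the log2 scale. Standard errors ran from 0.08 to 0.59 over both times.

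The 1 gene with an unadjusted p under 0.05 was Cdc6 at 12 h (adjusted p = 1.00 in edgeR's quasi-likelihood test). It had 2.46, 3.47, 3.54 and 3.10 CPM in siNTS + hCG cells, against 1.71, 2.49, 3.07 and 2.53 CPM in siNC + hCG cells, and all 4 labels were higher with the Nts siRNA although the groups overlapped. Its log2 fold change was 0.36 ± 0.17. Mcm7 averaged 58.9 ± 3.00 CPM in siNTS + hCG and 55.8 ± 5.04 CPM in siNC + hCG cells at 12 h, and 93.2 ± 3.61 and 95.2 ± 4.43 CPM in the same order at 4 h (SD, n = 4 each). Cdc20 averaged 37.4 ± 4.96 CPM in siNTS + hCG and 35.1 ± 4.51 CPM in siNC + hCG cells at 12 h, and 71.7 ± 8.03 and 65.1 ± 2.92 CPM at 4 h. Ccnb2 averaged 35.6 ± 8.74 CPM in siNTS + hCG and 35.4 ± 7.85 CPM in siNC + hCG cells at 12 h, and 21.6 ± 2.49 and 20.6 ± 3.96 CPM at 4 h. The siNTS + hCG libraries thus held the same order of times, with Mcm7 and Cdc20 lower and Ccnb2 higher at 12 h than at 4 h; this order was not tested in these cells.

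Other genes of the same pathways were counted for comparison, from lists that do not hold the 40. Over time with hCG, 2 of 45 other replication genes rose and 18 fell, and 1 of 56 other mitosis genes rose and 22 fell. Of all genes tested, 22.9% were higher and 20.2% lower with hCG. With hCG, 23 of the 45 and 33 of the 56 fell with the block, where 53.3% of all genes passed in either direction. With the length offset 27 and 30 fell, where 52.2% of all genes passed in either direction. In control cells 0 of the 45 rose and 22 fell, and 0 of the 56 rose and 31 fell, where 14.8% of all genes tested were higher and 16.0% lower. The median log2 fold change was −0.35 for other replication and −0.44 for other mitosis genes with hCG, and −0.45 and −0.59 in control cells. Uhrf1, which keeps DNA methylation through replication, fell, at a log2 fold change of −0.79 ± 0.09 (adjusted p = 3.5e-07) with hCG and −0.77 ± 0.09 (adjusted p = 1.9e-06) in control cells. Orc2, a subunit of the origin recognition complex, fell, at a log2 fold change of −0.57 ± 0.07 (adjusted p = 1.2e-06) with hCG and −0.64 ± 0.07 (adjusted p = 1e-06) in control cells. Ccnf, cyclin F, fell, at a log2 fold change of −0.98 ± 0.08 (adjusted p = 1.4e-08) with hCG and −1.25 ± 0.09 (adjusted p = 6.4e-09) in control cells, and the kinesin gene Kif18b at −1.11 ± 0.14 (adjusted p = 1.8e-06) and −1.09 ± 0.14 (adjusted p = 6.7e-06) in the same order. Against these, Pttg1, securin, averaged 21.9 ± 5.32 CPM with hCG at 12 h and 9.35 ± 0.797 CPM at 4 h, a log2 fold change of 1.23 ± 0.19 (adjusted p = 2.6e-05). Rfc2 and Prim2, of the clamp loader and the primase, rose with hCG, at 0.84 ± 0.17 (adjusted p = 0.00039) and 0.72 ± 0.20 (adjusted p = 0.0055).

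Of 20 genes of E2F, RB and DREAM regulation, 2 rose and 8 fell over time with hCG, and 2 rose and 6 fell in control cells. Of all genes tested, 22.9% were higher and 20.2% lower with hCG, and 14.8% higher and 16.0% lower in control cells. In control cells 12 fell with the block (43.3% of all genes passed in either direction) and 10 with the length offset (39.6%). Mybl2, which drives mitotic genes, averaged 6.77 ± 0.654 CPM with hCG at 12 h and 16.8 ± 2.88 CPM at 4 h, a log2 fold change of −1.31 ± 0.14 (adjusted p = 1.9e-07). In control cells Mybl2 averaged 5.28 ± 0.571 CPM at 12 h and 14.7 ± 2.42 CPM at 4 h, a log2 fold change of −1.48 ± 0.14 (adjusted p = 1.8e-07). The repressor gene E2f7, itself a target of E2F, fell, at a log2 fold change of −1.33 ± 0.18 (adjusted p = 3.7e-06) with hCG and −1.20 ± 0.18 (adjusted p = 3.1e-05) in control cells. Foxm1, a factor of mitotic genes, fell, at a log2 fold change of −0.82 ± 0.13 (adjusted p = 3.3e-05) with hCG. E2f2, an activator of S-phase genes, rose, at a log2 fold change of 0.78 ± 0.18 (adjusted p = 0.001) with hCG.

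Of 12 tested D cyclins, G1 kinases and CDK inhibitors, 2 rose and 2 fell over time with hCG, and 2 rose and 3 fell in control cells. Of all genes tested, 22.9% were higher and 20.2% lower with hCG, and 14.8% higher and 16.0% lower in control cells. With hCG, 4 fell with the length offset, where 52.2% of all genes passed in either direction. The inhibitor gene Cdkn1b, p27, averaged 292 ± 24.1 CPM with hCG at 12 h and 88.1 ± 14.3 CPM at 4 h, a log2 fold change of 1.73 ± 0.16 (adjusted p = 2.6e-08). In control cells it averaged 329 ± 13.3 CPM at 12 h and 172 ± 35.7 CPM at 4 h, a log2 fold change of 0.94 ± 0.15 (adjusted p = 9.8e-05). Another inhibitor gene, Cdkn1a or p21, fell with hCG, at −1.05 ± 0.28 (adjusted p = 0.0043). Ccnd2, the D cyclin known for granulosa cell division, fell, at a log2 fold change of −0.67 ± 0.15 (adjusted p = 0.00098) with hCG, and Ccnd3 rose, at a log2 fold change of 0.64 ± 0.16 (adjusted p = 0.0029). These named calls over time passed with each label left out in turn.

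Between hCG and control cells at 12 h, 6 of the 133 genes of the 4 lists rose and 4 fell, where 8.18% of all genes tested rose and 8.36% fell. With a block for the label, 17 rose and 8 fell, where 27.0% of all genes passed. E2f2 averaged 31.8 ± 5.87 CPM in hCG and 15.3 ± 1.64 CPM in control cells at 12 h, a log2 fold change of 1.05 ± 0.18 (adjusted p = 0.00017). Tfdp2, a partner of E2F factors, fell, at −0.85 ± 0.14 (adjusted p = 0.00011), and Hjurp, which deposits Cenpa at centromeres, at −0.72 ± 0.14 (adjusted p = 0.001). Cdk6 fell, at a log2 fold change of −0.66 ± 0.13 (adjusted p = 0.0012), but did not pass with the length offset (−0.46, adjusted p = 0.11). At 4 h, 4 of the 133 rose and 4 fell, where 7.95% of all genes tested rose and 11.1% fell. With the block 8 rose and 17 fell, where 30.1% of all genes passed, and with the length offset 12 rose and 6 fell, where 24.9% did. Cdkn1b averaged 88.1 ± 14.3 CPM in hCG and 172 ± 35.7 CPM in control cells at 4 h, a log2 fold change of −0.96 ± 0.15 (adjusted p = 0.00012). Of the calls of these lists between hCG and control cells, 6 at 12 h and 6 at 4 h were lost without at least 1 label. The hCG effect on Cdkn1b was more positive at 12 h than at 4 h, at 0.79 ± 0.22 (adjusted p = 0.043), and its adjusted p reached 0.31 with a label left out and was 0.057 with the length offset. Between siNTS + hCG and siNC + hCG cells, 0 genes of the 4 lists passed in edgeR without the block at either time, with 2 at an unadjusted p under 0.05 at 12 h and 0 at 4 h. With the block 1 passed as lower at 12 h, E2f2 (adjusted p = 0.04), which had −0.46 ± 0.17 (adjusted p = 0.98) without it.

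Transcript length moved with the spread between libraries of 1 group. The 6 genes with a longest transcript over 4500 bases were Cdc6, Kif11, Top2a, Cenpe, Mki67 and Cenpf, and the 7 under 2000 bases were Pcna, Tk1, Ccnb2, Aurka, Aurkb, Cenpa and Cdc20. In siNC + hCG cells at 12 h, the A_1 library had a length trend of −0.32, with the long genes −1.24 and the short genes 0.16 log2 units from their own means. In control cells at 12 h, the A_1 library had a trend of 0.23, with the long genes at 0.51 and the short genes at −0.45. In control cells at 4 h, the A_1 library had a trend of −0.42, with the long genes at −0.43 and the short genes at 0.82. Of the 6 long genes, 5 passed in neither comparison over time, and their standard errors in those comparisons reached 0.59. Cdc6 was the long gene that fell in both, and short genes such as Cdc20 and Aurkb fell as well. Fitted with the length offset, Cdc20 had −1.06, adjusted p = 3.7e-07 with hCG and −0.98, adjusted p = 2.9e-06 in control cells, and Cdc6 −1.46, adjusted p = 2.5e-07 and −1.25, adjusted p = 5.1e-06 in the same order. Top2a still did not pass with it, at −0.65, adjusted p = 0.12 with hCG and −0.63, adjusted p = 0.15 in control cells.

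**Figure D5:**
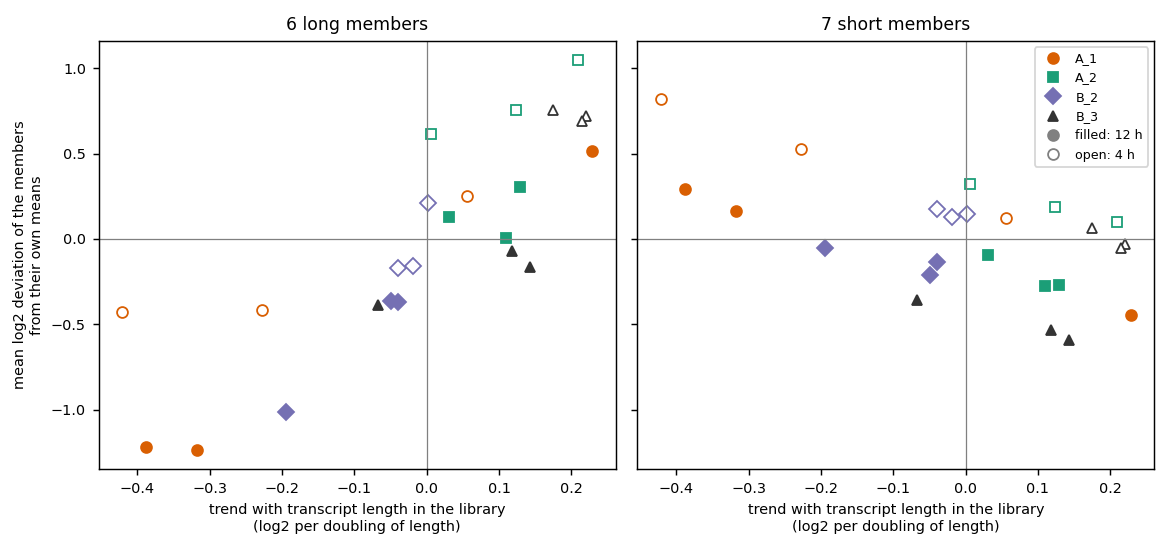
For each of the 24 libraries, the trend of all genes with transcript length (x, log2 units per doubling) against the mean log2 deviation of the 6 long genes (left) or the 7 short genes (right) from their own means; colour and symbol give the label, filled points are 12 h and open points 4 h. Long genes sit low and short genes high where the trend is most negative, and at a like trend the 12 h points lie below the 4 h points.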

How the data were processed

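RNA sequencing measured gene expression in 24 libraries of mouse granulosa cells, 4 in each of 6 groups. Reads were quantified with Salmon 1.4.0, per the submitters' processing notes, which also name R 4.1.0, edgeR, limma and the GRCm39 build. The deposited table holds the authors' estimated counts per gene, and these were rounded to whole numbers. A further 96 columns of log2 values per library in the authors' deposited tables were not used. The authors' deposited log2 fold changes and adjusted p-values are quoted only where named.

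The main test was edgeR 4.0.16 (R 4.3.3) with TMM scaling, filterByExpr and a quasi-likelihood fit of the 6 groups over all 24 libraries, with Benjamini-Hochberg adjustment over 15405 genes. It was also run on simulated counts, drawn independently for each library with the same spread for all genes. Those counts held no label or date structure, so they cannot show how the test handles such structure. Alternatives were DESeq2 1.42.0, limma 3.58.1 (voom), RLE scaling, other filters, blocks and left-out labels. The members, lists and roles were chosen with earlier results of these data known. Values in every library are printed for the gene of each role with the highest mean CPM and the one with the smallest adjusted p over the hCG and time comparisons. Beyond these, up to 3 passing and 2 other genes a role are named in each comparison, and up to 3 each way from each pathway list. The values of 1 pathway gene that the rule names are not reported here. Values in every library of Ccnb2, Cdt1 and Cdc6 were added after their values were seen.

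Libraries with the same label share a date in their titles, per the labels, so the label is a block in an alternative fit. Of 24 pairs of same-label libraries, 21 deviated together with a correlation over 0.1 (median 0.54, lowest −0.69). The A_1 control library at 12 h deviated against its label, at −0.69 with siNC + hCG at 12 h and −0.65 with control at 4 h. Over the 36 pairs of libraries within groups, counts differed beyond sampling noise (chi-square over its degrees of freedom: lowest 22.4, highest 432), and all were kept as separate samples. Depth ran from 26.2 to 45.4 M counts per library.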

Additional observations from a re-analysis of the deposited data

Results flagged for a closer look

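In 11 of 240 groups of 4 values, the gap between the highest or lowest library and its nearest neighbour exceeded Dixon's critical share of the range; chance flags about 1 in 20 groups, and 7 of the 11 carry the label A_1. In siNTS + hCG cells at 12 h, Ccne2 had 12.9 CPM in the B_3 library, against 8.13 to 8.71 CPM in the others. In siNTS + hCG cells at 4 h, the A_1 library had 391 CPM of Pcna, against 185 to 204 CPM in the others, and 107 CPM of Ube2c, against 81.4 to 84.0 CPM. In siNC + hCG cells at 4 h, Mcm7 had 88.6 CPM in the A_1 library, against 97.0 to 97.9 CPM. In the same group, the B_2 library had 39.0 CPM of Mki67, against 76.6 to 82.6 CPM, and 60.8 CPM of Cdc20, against 66.3 to 67.1 CPM. There too, Birc5 had 16.9 CPM in the B_3 library, against 22.7 to 23.96 CPM. In control cells at 4 h, the A_1 library stood this far above the others for 4 genes. It had 247 CPM of Pcna, against 109.8 to 123 CPM, and 126 CPM of Ccnb1, against 76.3 to 82.8 CPM. It had 19.6 CPM of Ccne2, against 12.0 to 12.9 CPM, and 6.29 CPM of Ccne1, against 4.32 to 4.60 CPM. The same library had the most negative trend with transcript length of the 24 (−0.42 log2 units per doubling), and the part of this in these values was not tested.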

How the results depend on the processing

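The counts of the 40 genes that passed over time stayed within 1.5 times under every alternative run: 17 to 28 against 23 with hCG, and 17 to 28 against 25 in control cells. Leaving out 1 label gave 17 to 25 with hCG and 17 to 26 in control cells. The counts between hCG and control cells moved more. At 12 h, 5 passed, against 8 with the replicate block, 8 with the replicate block and the length offset, 1 with no filter on low counts, 1 with only the groups compared, and 0 to 4 with a label left out. At 4 h, 4 passed, against 7 with the replicate block, 10 with the replicate block and the length offset, 2 with no filter, 2 with only the groups compared, and 1 to 3 with a label left out. The replicate block with the length offset also called more of all genes. Of 13940 genes, it called 2386 higher and 2790 lower at 4 h, and 2175 higher and 2668 lower at 12 h. For the difference of the hCG effect between times, 0 passed, against 4 with the replicate block, 3 with the titles' date as the block, 6 with the replicate block and the length offset, 1 with DESeq2, 1 with only the groups compared and 1 with the length offset. The siRNA counts were 0 at both times under all of these. Of 57 calls of single genes, 0 reversed in these settings and 0 were lost with the replicate block, the date block, DESeq2 or the length offset. With no filter 11 were lost, with only the groups compared 13, without A_1 8, without A_2 20, without B_2 15 and without B_3 20. In limma-voom, RLE scaling and the filter at a mean of 1 CPM, 2 each were lost. The causes were not tested, and the fits without a label also hold fewer libraries. With 4 libraries a group, the standard errors of the long genes over time ran from 0.17 to 0.59 on the log2 scale, which limits what could be detected for them.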
